A study of Mus musculus with 11 samples.

Results

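Genes that encode extracellular proteases and components of the matrix were followed in trigeminal neurons after injury. The group holds 9 of the 24243 genes listed over all tables, namely Mmp16, Adam8, Adam10, Ecel1, Adamts9, Adamts16, Plat, Plaur and Frem3. They were picked by name after earlier results of these nuclei were known, and the levels in injured against uninjured nuclei after nerve transection helped to choose them. That contrast is therefore given for them as a description with no test. All 9 were listed in the 7 tables made on the 10x platform, and 8 of 9 in the Drop-seq table, where Frem3 was not listed.

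The study sequenced RNA of single nuclei from the mouse trigeminal ganglion, which holds the sensory neurons of the face. Nuclei were enriched with an antibody to NeuN, a protein of neuronal nuclei, and ganglia of several males and females were pooled for each library. Infraorbital nerve transection (IOT, called spared nerve injury in the labels) cuts superficial branches of the nerve that serves the whisker pad, so only part of the neurons of the ipsilateral ganglion lose their axon. Each injury condition was 1 library.

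Uninjured wildtype mice of strain C57BL gave 1 library on 10x and 4 Drop-seq libraries that share 1 table. IOT was done in C57BL mice and nuclei were taken 2, 7, 21 and 75 days later. Facial injury was a set of skin cuts in C57BL mice, examined after 2 days. Scratch lesions came from mice of a mixed FVBN/C57BL/129 background that carried Fos-tTA together with tetO-mCherry-2A-Gnaq, scratched without a cause that the study could name, and had open skin wounds on head and neck. All groups were older than 6 weeks. The scratch library therefore differs from the others in strain and transgenes as well as in injury, and these cannot be told apart.

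Extracellular proteases cut matrix proteins and the outer parts of membrane proteins. Matrix metalloproteinases and the ADAM and ADAMTS families use zinc, whereas tissue plasminogen activator (Plat) is a serine protease that turns plasminogen into plasmin, and the urokinase receptor (Plaur) holds the other plasminogen activator at the cell surface. Such enzymes are known from growing and regrowing axons, which pass through matrix that can halt or guide them.

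The members lie on separate parts of the genome. In GENCODE coordinates of GRCm38 (mm10), Ecel1 spans chr1:87147655-87156521 on the minus strand, Mmp16 chr4:17852893-18119145 on the plus strand, Adamts9 chr6:92772699-92943492 on the minus strand and Adamts16 chr13:70727802-70841811 on the minus strand. Plaur (chr7:24462484-24475968, plus) and Adam8 (chr7:139978932-139992562, minus) share a chromosome, as do Plat (chr8:22757727-22782844, plus) and Frem3 (chr8:80611080-80695356, plus), and Adam10 spans chr9:70678997-70780229 on the plus strand. All 9 are annotated as protein coding, and introns counted toward their values.

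Promoter sequences, from 250 bases before to 50 bases after the start, were matched by symbol in RefSeq for GRCm38.p6 for 6 of 9 members, and those of Mmp16, Plat and Adamts16 were not. The 4 shown belong to members with large differences between injured and uninjured nuclei, and capitals mark the match to a searched motif. The windows are chr7:24462233-24462532 (plus) for Plaur, chr7:139992513-139992812 (minus) for Adam8, chr1:87156307-87156606 (minus) for Ecel1 and chr8:80610789-80611088 (plus) for Frem3, each printed 5′ to 3′ on the strand of its gene.
Plaur promoter: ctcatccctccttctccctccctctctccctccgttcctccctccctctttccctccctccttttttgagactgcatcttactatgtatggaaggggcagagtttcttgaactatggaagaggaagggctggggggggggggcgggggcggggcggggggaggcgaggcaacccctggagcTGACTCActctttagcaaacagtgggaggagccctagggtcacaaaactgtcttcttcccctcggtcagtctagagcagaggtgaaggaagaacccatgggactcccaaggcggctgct
Adam8 promoter: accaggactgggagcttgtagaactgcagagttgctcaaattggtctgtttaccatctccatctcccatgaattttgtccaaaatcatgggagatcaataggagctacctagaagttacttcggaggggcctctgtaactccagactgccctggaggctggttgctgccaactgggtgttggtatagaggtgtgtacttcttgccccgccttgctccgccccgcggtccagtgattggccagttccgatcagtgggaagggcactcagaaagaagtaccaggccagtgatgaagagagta
Ecel1 promoter: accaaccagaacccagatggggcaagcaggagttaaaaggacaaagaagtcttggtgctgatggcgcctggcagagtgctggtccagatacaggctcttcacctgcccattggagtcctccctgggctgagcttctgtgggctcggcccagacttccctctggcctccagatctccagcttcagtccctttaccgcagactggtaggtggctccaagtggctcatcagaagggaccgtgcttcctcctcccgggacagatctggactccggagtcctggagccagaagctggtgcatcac
Frem3 promoter: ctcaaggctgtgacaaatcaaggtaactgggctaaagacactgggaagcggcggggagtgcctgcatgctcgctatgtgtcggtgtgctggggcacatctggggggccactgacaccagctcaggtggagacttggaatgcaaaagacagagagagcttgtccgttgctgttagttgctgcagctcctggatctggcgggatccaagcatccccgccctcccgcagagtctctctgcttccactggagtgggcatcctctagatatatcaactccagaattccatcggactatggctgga
The motifs searched on both strands were the AP-1 motif TGANTCA, the site of Fos and Jun family dimers, the CRE motif TGACGTCA, the Sox motif AACAAAG and the TATA box TATAAA, and none of these letter strings contains another. Among the 6 promoters the only match was TGACTCA in Plaur, 69 bases before the start. Of 32851 promoters of this length, 7.81% held the AP-1 motif, 1.79% the CRE motif, 5.85% the Sox motif and 13.62% the TATA box, so a single AP-1 match among 6 windows is a description of the sequence and not a sign of binding. The GC content was 59.3% in Plaur, 52.3% in Adam8, 59.0% in Ecel1 and 56.3% in Frem3, against a median of 52.7% over all promoters, and it was 70.0% in Adamts9 and 73.3% in Adam10.

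The 8 tables held 40359 nuclei and 7735811 to 22003842 UMIs (counts of distinct captured RNA molecules) each. Nuclei were clustered without the members, and 2 of 26 clusters, I1 and I2, carried the injury markers (Atf3, Sox11, Sema6a and others). Injured nuclei made up 12% of the library at day 2 and at day 7 after IOT, 5.88% at day 21, 2.53% at day 75, 1.43% after facial cuts and 2.30% with scratch lesions, but only 6 of 4368 nuclei of the 10x control and 10 of 3178 of the Drop-seq control. I2 took 8.70% to 20.4% of injured nuclei after IOT, 63.7% after facial cuts and 73.3% with scratch lesions. Atf3, the transcription factor that marks axon injury, stood at 203 to 499 CPM (UMIs of the gene per 1000000 UMIs of the same nuclei) in injured nuclei of the 6 injury libraries and at 5.20 to 22.4 CPM in their uninjured nuclei. Markers of satellite glia and of Schwann cells were both present in the injured nuclei at 0.993 to 1.60 and 0.970 to 1.44 times their summed level in uninjured nuclei, with 0.882 to 1.89 times for fibroblasts, 0.896 to 1.65 for vascular cells, 0.382 to 2.91 for leukocytes and 0.863 to 1.14 for red cells, and their part in the results was not tested. Any 2 10x libraries shared 16 to 92 cell barcodes.

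Of the protease genes, Mmp16, Adam8 and Ecel1 were higher in injured than in uninjured nuclei in all 6 injury libraries, and Adam10 was so by a small margin. Adamts9 and Adamts16 were lower in all 4 IOT libraries. Of the plasminogen genes, Plaur was higher in all 6 libraries, while Plat was higher in 4 and lower in 2. Frem3, the matrix protein, was higher in all 6.

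**Figure D1:**
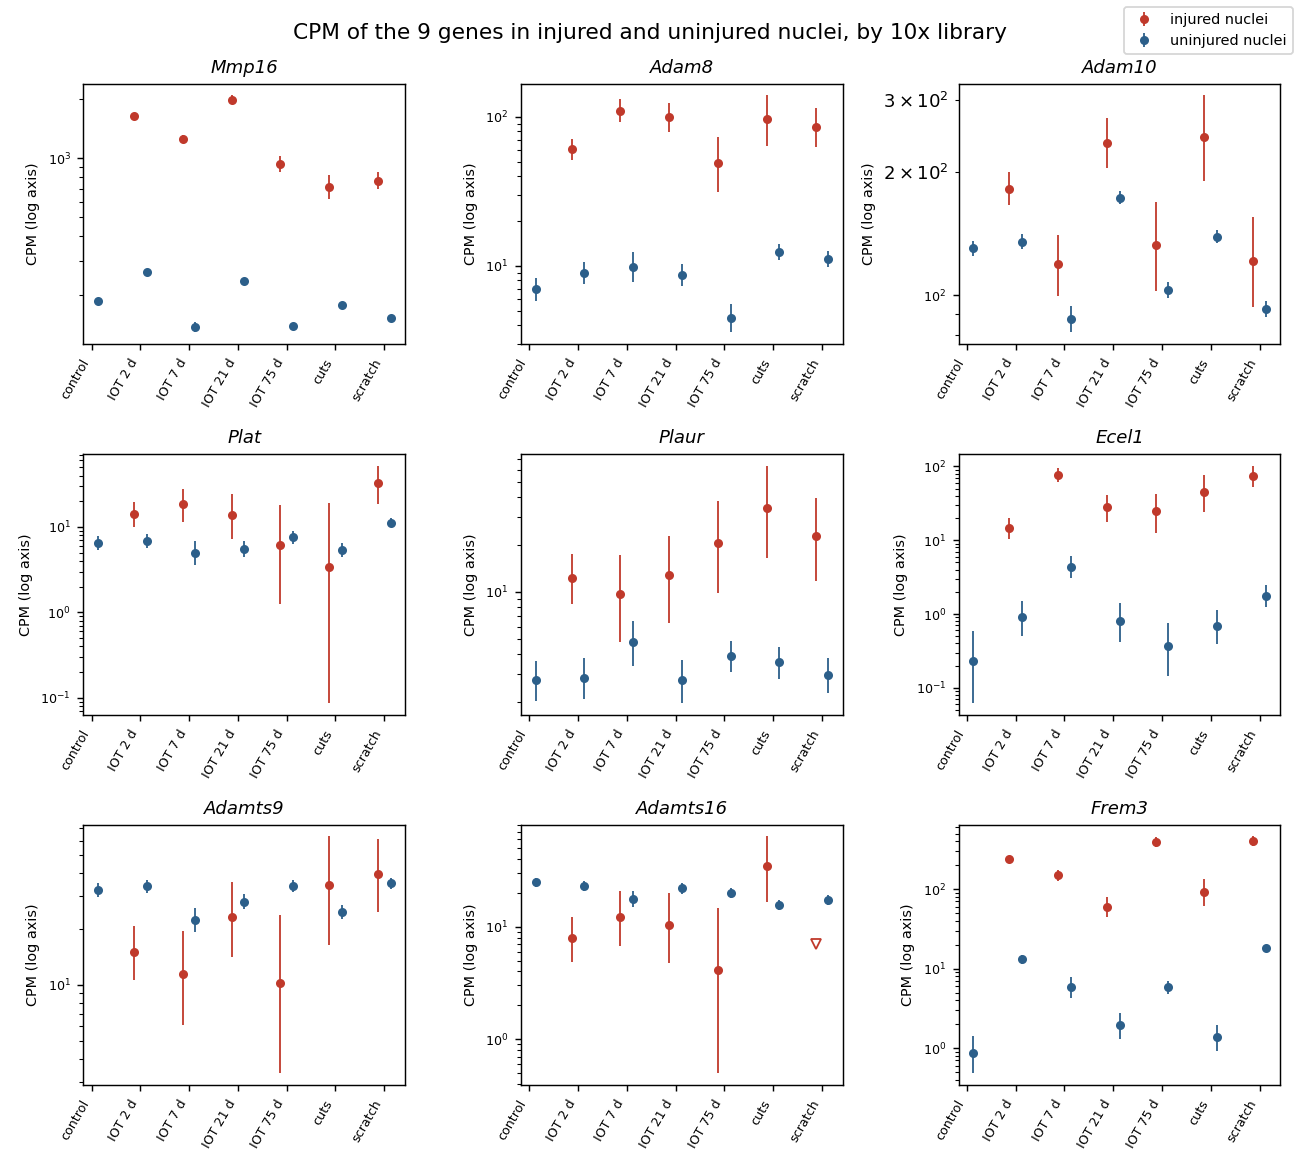
Levels of the 9 members in injured and uninjured nuclei of each library, in CPM on a log axis, with exact Poisson 95% intervals that cover counting error only. Open triangles mark the upper limit where no UMI was counted, and groups under 20 nuclei are not drawn. The points for Mmp16 in injured nuclei lie between 715 and 1997 CPM, above all uninjured points of that gene.

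Mmp16 encodes a membrane-anchored matrix metalloproteinase (MT3-MMP). In injured nuclei it stood at 1641 CPM at day 2, 1255 at day 7, 1997 at day 21 and 933 at day 75 after IOT, at 715 CPM after facial cuts and at 769 CPM with scratch lesions. In uninjured nuclei of the same libraries, in that order, it stood at 262, 137, 238, 139, 179 and 154 CPM, and at 187 CPM in the uninjured nuclei of the 10x control. The groups did not overlap, and the injured level was 6.26 to 9.15 times the uninjured one after IOT and 4.01 and 5.01 times after cuts and scratching. With all nuclei thinned to 1143 UMIs, 56.5% to 80.3% of injured nuclei had a Mmp16 UMI after IOT against 14.7% to 24.0% of uninjured nuclei, and unthinned shares were 92.3% against 54.1% at day 2. The fitted log2 difference was 3.01 (SE 0.11) over the 4 IOT libraries and 2.09 (SE 0.16) over the 2 milder injuries.

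Adam8 encodes a membrane metalloproteinase known from leukocytes and from injured neurons. It stood at 60.7, 110, 99.6 and 49.1 CPM in injured nuclei at days 2, 7, 21 and 75 after IOT, at 96.3 CPM after cuts and at 85.5 CPM with scratch lesions. The uninjured nuclei held 9.01, 9.88, 8.71, 4.47, 12.4 and 11.1 CPM, and those of the 10x control 6.98 CPM. No injured value fell within the uninjured range, and the folds ran from 6.73 at day 2 to 11.4 at day 21. After thinning, 5.43% to 13.5% of injured nuclei had a UMI in the 6 libraries, against 0.508% to 1.61% of uninjured nuclei. The fitted log2 difference was 3.36 (SE 0.15) after IOT and 2.87 (SE 0.25) after the milder injuries.

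Adam10 encodes the sheddase that cuts Notch, cadherins and cell adhesion molecules, and it is widely expressed. Injured nuclei held 182, 119, 236 and 133 CPM at days 2, 7, 21 and 75 after IOT, 244 CPM after cuts and 122 CPM with scratch lesions, and uninjured nuclei held 135, 87.6, 173, 103, 139 and 92.5 CPM. The 2 sets overlapped across libraries, but within each library the injured nuclei were higher, by 1.29 to 1.75 times. The fitted log2 difference was 0.53 (SE 0.10) after IOT and 0.52 (SE 0.16) after the milder injuries. The log2 ratios of CPM, which carry none of the scaling factors of the fit, were 0.37 to 0.45 after IOT. The size of the fitted IOT difference depends on which nuclei were taken as injured. With I2 nuclei alone it was 0.22 (SE 0.19). With injured nuclei taken as those with UMIs of at least 3 of 10 injury markers it was 0.16 (SE 0.08). That marker rule is wider than the clusters. It took 4078 nuclei of all tables as injured against 1689 by cluster, with 1516 shared. Of the 4368 nuclei of the 10x control it took 232, against 6 by cluster.

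Ecel1 encodes a membrane protein of the neprilysin family, also known as DINE for its rise in damaged neurons. It stood at 14.7, 76.2, 27.8 and 24.6 CPM in injured nuclei at days 2, 7, 21 and 75 after IOT, at 44.7 CPM after cuts and at 74.1 CPM with scratch lesions. Uninjured nuclei held 0.907, 4.38, 0.798, 0.364, 0.691 and 1.78 CPM, and the control 0.229 CPM from 4 UMIs. All injured values were above all uninjured ones. Counts were low, with 160 UMIs in all injured IOT nuclei, and after thinning 1.09% to 12.9% of injured nuclei had a UMI against at most 0.504% of uninjured ones. The fitted log2 difference was 4.65 (SE 0.26) after IOT and 5.51 (SE 0.40) after the milder injuries.

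Adamts9 and Adamts16 encode secreted metalloproteinases with thrombospondin repeats, and Adamts9 is known to cut the proteoglycans versican and aggrecan. Adamts9 stood at 15.1, 11.4, 23.2 and 10.2 CPM in injured nuclei at days 2, 7, 21 and 75 after IOT against 34.0, 22.4, 28.1 and 34.3 CPM in uninjured ones. After cuts it stood at 34.4 against 24.8 CPM and with scratch lesions at 39.9 against 35.3 CPM. The injured level was thus lower in 4 of 4 IOT libraries and higher in 2 of 2 milder ones, with log2 differences of −0.86 (SE 0.19) and 0.22 (SE 0.29). The milder levels rest on 10 injured UMIs after cuts and 21 with scratch lesions. After thinning, the injured shares there were slightly the lower ones. They were 2.75% against 2.97% after cuts and 4.09% against 4.25% with scratch lesions, so a rise after the milder injuries is not established.

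Adamts16 stood at 7.93, 12.3, 10.4 and 4.09 CPM in injured nuclei after IOT against 22.9, 17.6, 22.0 and 19.8 CPM in uninjured ones, in the same order of days. After cuts it was at 34.4 CPM from 10 UMIs against 15.6 CPM, and with scratch lesions no UMI was counted in 180 injured nuclei against 17.3 CPM in uninjured ones. The injured values after IOT all lay under the uninjured ones, with a log2 difference of −1.10 (SE 0.30) from 45 injured UMIs. Without the day 2 library it was −0.89 (SE 0.40), and against neurons labeled small diameter by markers −0.43 (SE 0.32). With I2 nuclei alone as the injured group it was −0.22 (SE 0.45), and DESeq2 gave −1.14 (SE 0.77).

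Plat, which encodes tissue plasminogen activator, was sparse. Injured nuclei held 14.3, 18.4, 13.9 and 6.14 CPM at days 2, 7, 21 and 75 after IOT, 3.44 CPM after cuts and 32.3 CPM with scratch lesions, against 6.89, 5.004, 5.59, 7.54, 5.34 and 11.3 CPM in uninjured nuclei. Day 75 rests on 3 injured UMIs and the cuts on 1. The level was higher in injured nuclei at days 2, 7 and 21 and with scratch lesions only, and the log2 difference was 1.29 (SE 0.27) after IOT and 1.17 (SE 0.48) after the milder injuries. The IOT value was 0.44 (SE 0.64) with I2 nuclei alone and 0.72 (SE 0.22) with injured nuclei set by 3 of 10 injury markers.

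Plaur, the urokinase receptor, stood at 12.3, 9.64, 12.7 and 20.5 CPM in injured nuclei after IOT, at 34.4 CPM after cuts and at 22.8 CPM with scratch lesions. Uninjured nuclei held 2.84, 4.75, 2.73, 3.90, 3.55 and 2.95 CPM. Injured values were above every uninjured value, at 2.03 to 5.25 times after IOT and 9.70 and 7.73 times after cuts and scratching. After thinning, 0.435% to 3.26% of injured nuclei had a Plaur UMI after IOT against 0.247% to 0.536% of uninjured ones, and at day 7 the injured share was the lower one (0.435% against 0.536%). The counts behind the levels were 63 injured UMIs after IOT and 22 after the milder injuries, and the log2 differences were 2.05 (SE 0.27) and 3.02 (SE 0.45).

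Frem3 encodes an extracellular matrix protein of the Fras1 family, which holds epithelium to the underlying matrix in development. It stood at 241, 150, 60.2 and 395 CPM in injured nuclei at days 2, 7, 21 and 75 after IOT, at 92.9 CPM after cuts and at 401 CPM with scratch lesions. Uninjured nuclei held 13.1, 5.88, 1.93, 5.82, 1.38 and 18.104 CPM. The values spread widely among injured nuclei, from 60.2 to 401 CPM, but the 2 sets did not overlap, and the injured level was 18.3 to 67.9 times the uninjured one. After thinning 6.30% to 29.3% of injured nuclei had a Frem3 UMI against 0.160% to 1.45% of uninjured ones. The fitted log2 difference was 5.05 (SE 0.21) after IOT and 4.79 (SE 0.33) after the milder injuries.

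In the fit over all genes the 9 members had adjusted p under 0.05 for injured against uninjured nuclei after IOT, 7 higher and 2 lower, against 27.1% of 14070 genes tested (14.5% higher and 12.6% lower), and since this contrast chose them nothing is read from the count. Over all genes 2046 were higher and 1774 lower, and with library totals in place of TMM factors 1629 were higher and 2568 lower, with the median of all genes at −0.16 in place of −0.04. The CPM folds above carry no such factor. The 4 IOT libraries served as replicates of IOT although they differ in time, so the spread behind each SE includes differences over time.

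**Figure D2:**
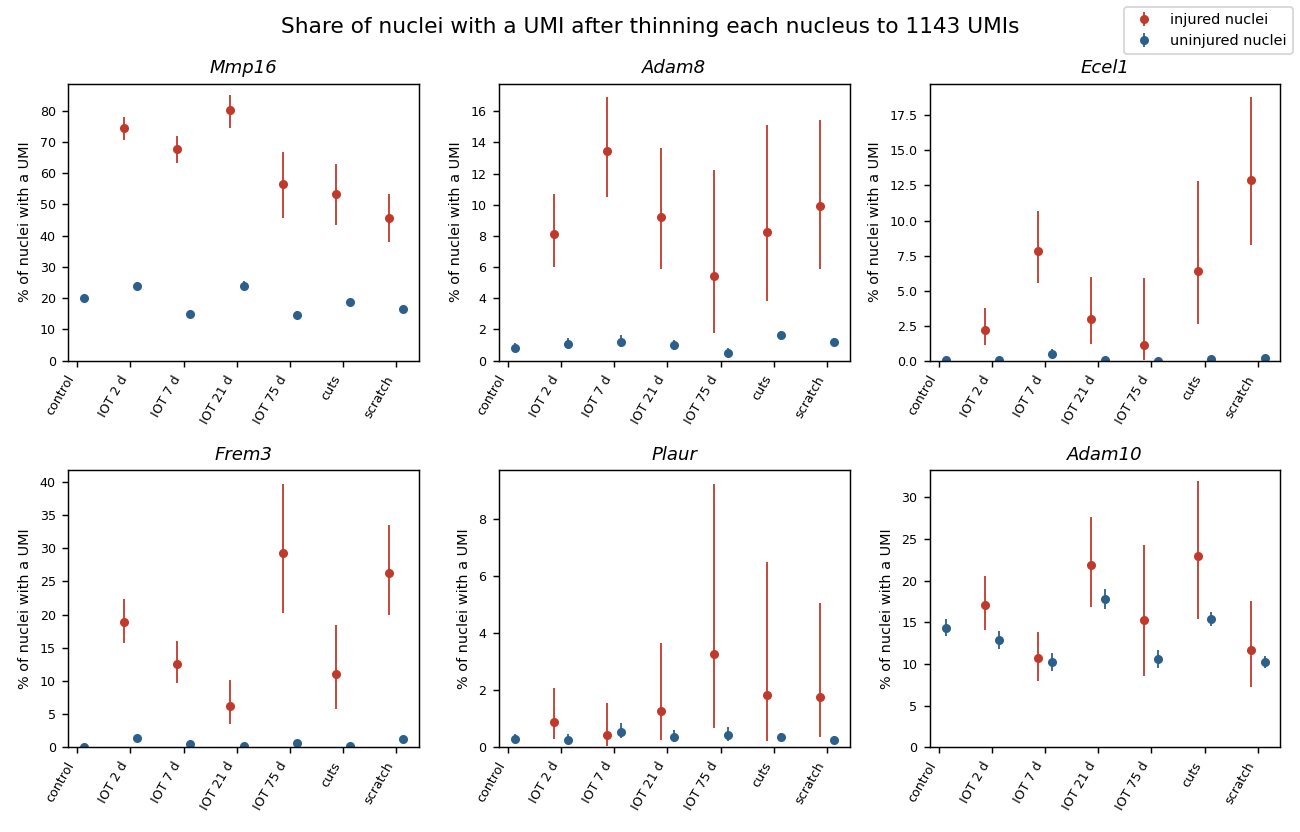
Percent of nuclei with at least 1 UMI of Mmp16, Adam8, Ecel1, Frem3, Plaur or Adam10 after every nucleus was thinned to 1143 UMIs, by library and injury state, with exact binomial 95% intervals. Shares for Mmp16 in injured nuclei run from 45.6% to 80.3%, above the 14.7% to 24.0% of uninjured nuclei.

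Single nuclei often carried several members. At the same depth of 1143 UMIs, 28.7% to 33.7% of injured nuclei had UMIs of at least 2 members in the 6 injury libraries, against 3.34% to 7.14% of uninjured nuclei. At least 3 members were seen in 5.43% to 10.5% of injured and 0.0565% to 0.616% of uninjured nuclei, and the most in 1 nucleus was 4. The members were chosen for their injury levels, so this states how often they were seen together and no more.

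The injury effect after transection was set beside that after skin injury as the difference of the 2 log2 effects. The IOT effect in this difference comes from the contrast that helped to choose the members, and the choice favors large effects after IOT, so the values are a description with no test. Mmp16 had an effect larger by 0.92 after IOT (SE 0.19), and all 4 IOT folds for Mmp16 were above both milder ones. It was 0.74 without TMM factors, 0.73 without the facial cuts library, 1.19 with I1 nuclei alone as the injured group and 0.12 (SE 0.23) with I2 nuclei alone, which made up more of the injured nuclei in the milder libraries, as given above. In the fit over all genes (edgeR quasi-likelihood test, Benjamini-Hochberg) 1.22% of 14070 genes were called (0.881% higher and 0.334% lower), Mmp16 as 1 of the 9 members, and nothing is read from that count. The 124 higher and 47 lower genes became 58 and 73 without TMM factors, which moved the median of all genes from 0.11 to −0.08.

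For the other members the difference was 0.49 for Adam8 (SE 0.27), −0.86 for Ecel1 (SE 0.45), 0.26 for Frem3 (SE 0.37), −1.08 for Adamts9 (SE 0.36) and −0.97 for Plaur (SE 0.46). Negative values mean a lower effect after IOT. Adam10 differed by 0.01 (SE 0.19), with an interval of the ratio of effects from 0.773 to 1.30. The intervals for Plat (0.537 to 2.19) and Adamts16 (0.232 to 1.78) held a 1.5-fold difference in either direction.

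No member's injury effect had a slope with time that passed, where 0.0157% of 12705 genes did so (0.00787% in each direction, 1 higher and 1 lower, or 9 and 3 without TMM factors) and 906 genes had unadjusted p under 0.05. The slope was fitted over the 4 IOT libraries with 2 residual degrees of freedom. Frem3 came nearest with a gain of 0.31 log2 units per doubling of time (SE 0.06, adjusted p = 0.0588). Its folds in order of days were 18.3, 25.5, 31.2 and 67.9. Its level rose steadily neither in injured nuclei (241, 150, 60.2 and 395 CPM) nor in uninjured ones (13.1, 5.88, 1.93 and 5.82 CPM). Frem3 was called by DESeq2 (0.32, adjusted p = 0.0269) but not when a library was left out or with I1 nuclei alone. Over the alternatives its slope ran from −0.18 to 0.35. Ecel1 gained 0.35 per doubling (SE 0.14, adjusted p = 0.633) from folds of 16.2, 17.4, 34.8 and 67.5, the last with 7 uninjured UMIs. Injured nuclei held 14.7, 76.2, 27.8 and 24.6 CPM of Ecel1. Mmp16 had a slope of −0.03 (SE 0.06, adjusted p = 0.961).

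I1 and I2 nuclei both held high levels of Mmp16, Frem3, Adam8 and Ecel1. Over the 6 injury libraries Mmp16 had a median of 1130 CPM in I1 (range 643 to 2100) and 880 CPM in I2 (792 to 1333). Frem3 had medians of 198 and 167 CPM, Adam8 of 84.6 and 81.3 CPM and Ecel1 of 28.6 and 54.5 CPM. The ranges overlapped for each of these 4 genes, and I2 at day 75 held only 8 nuclei.

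**Figure D3:**
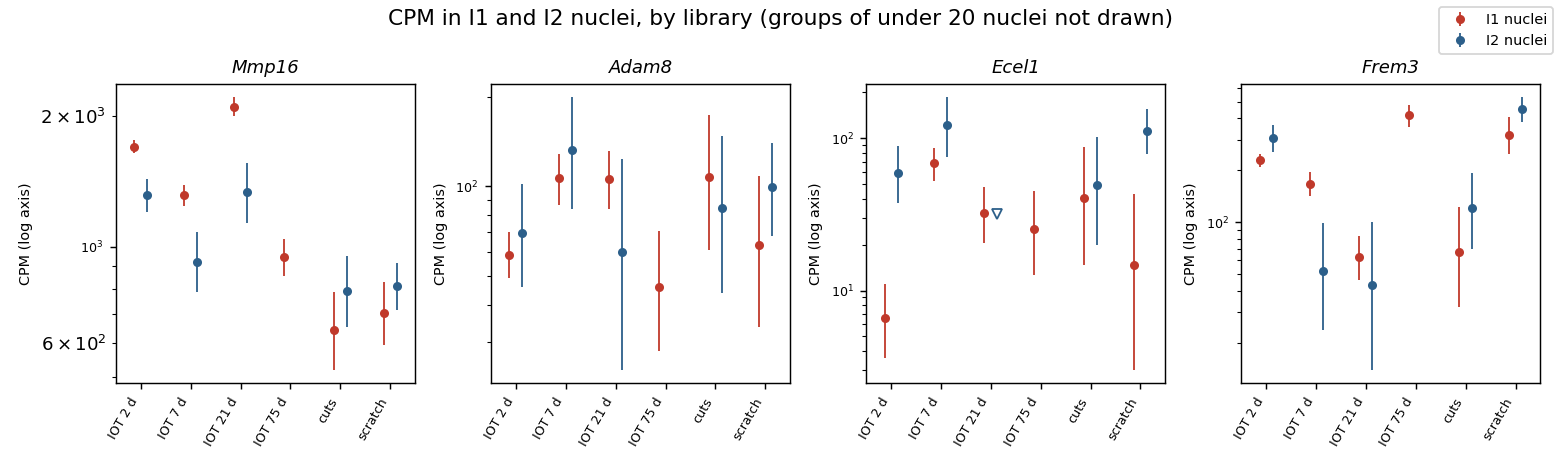
Levels of Mmp16, Adam8, Ecel1 and Frem3 in I1 and I2 nuclei of each injury library, in CPM on a log axis with exact Poisson 95% intervals, where an open triangle marks the upper limit at 0 UMIs and groups under 20 nuclei are not drawn. Mmp16 points lie higher in I1 than in I2 at days 2, 7 and 21 after IOT and lower after cuts and with scratch lesions.

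The test of I1 against I2 over the 4 IOT libraries covered 5 members and called none, where 10.1% of 5688 genes were called (6.52% higher in I1 and 3.57% lower). The 371 higher and 203 lower genes became 282 and 330 without TMM factors. Mmp16 was 0.56 log2 units higher in I1 (SE 0.19, adjusted p = 0.0510), Frem3 0.55 higher (SE 0.25, adjusted p = 0.190), and the value for Ecel1 was −1.02 (SE 0.42, adjusted p = 0.137). Adam8 differed by 0.02 (SE 0.24, adjusted p = 0.975), with the ratio between 0.723 and 1.42. DESeq2 called none of the 5 either, and leaving out day 2 moved Frem3 to 1.29 (adjusted p = 0.0256). Plat, Plaur, Adamts9 and Adamts16 fell below the filter on low counts.

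In uninjured nuclei the members were found in different neurons. Neuron classes were set by clusters of the same nuclei, from other genes than the members, so levels by class are a description. Uninjured nuclei of the 7 10x libraries formed 23 classes, which take the names C1/2, C3, C5, C7-10, C11, C12 and C13 where their markers allow and the name of 2 leading genes otherwise.

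Adamts9 was highest in C3, the class marked by Cdh9, Fam19a4 and Zfp521, at a median of 227 CPM (range 153 to 315) against 21.5 CPM in the other uninjured nuclei. The next class, led by Itga2 and Unc5d, had a median of 85.1 CPM (61.9 to 110), and its range did not overlap with that of C3. Adamts16 was highest in that class led by Itga2 and Unc5d, at 197 CPM (150 to 260) against 13.6 CPM elsewhere. Below it came the class led by Adarb2 and Lrrtm4 at 111 CPM (61.0 to 139) and the class led by Zfpm2 and March1 at 103 CPM (56.7 to 137), which overlapped each other.

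Plaur and Adam8 were highest in the small neurons of C11, the class with Il31ra, Osmr, Sst and Nppb that is known for itch. Plaur had a median of 30.6 CPM there (12.02 to 53.7) against 2.75 CPM in the other uninjured nuclei, and C13 followed at 10.7 CPM (3.66 to 13.4), overlapping with it. Adam8 had a median of 38.7 CPM in C11 (5.51 to 42.1) and 30.02 CPM in C12 (15.3 to 50.2), and these overlapped. C11 held 45 Plaur UMIs and 52 Adam8 UMIs over 572 nuclei.

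Adam10 varied less, from a median of 195 CPM in C7-10 (128 to 267), the peptidergic class with Tac1 and Trpa1, down to 89.0 CPM in the class led by Neb and Runx3 (55.5 to 132). Mmp16 was highest in the class led by Calb2 and Col5a2 at 354 CPM (192 to 455) and lowest in the class led by Calb2 and Pcp4 at 63.1 CPM (38.1 to 159). Plat reached 15.9 CPM (0 to 18.2) in the class led by Calb2 and Pcp4, from at most 9 UMIs a library. The value of 0 came from 8 nuclei after facial cuts. That class also had the highest mean marker z of satellite glia among the clusters (0.43). The highest median of Ecel1 was 2.29 CPM, in C7-10 (0 to 6.33). That of Frem3 was 7.58 CPM, in the class led by Chrna7 and Insrr (0.571 to 31.2). In single libraries Frem3 reached 76.7 CPM in C12 and 55.0003 CPM in C11. With the 10x control alone other classes led for Ecel1 (C12), Frem3 (led by Stk32a and Cdh13) and Plat (led by Chodl and Grm5). Its uninjured nuclei held 4 UMIs of Ecel1 and 15 of Frem3.

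**Figure D4:**
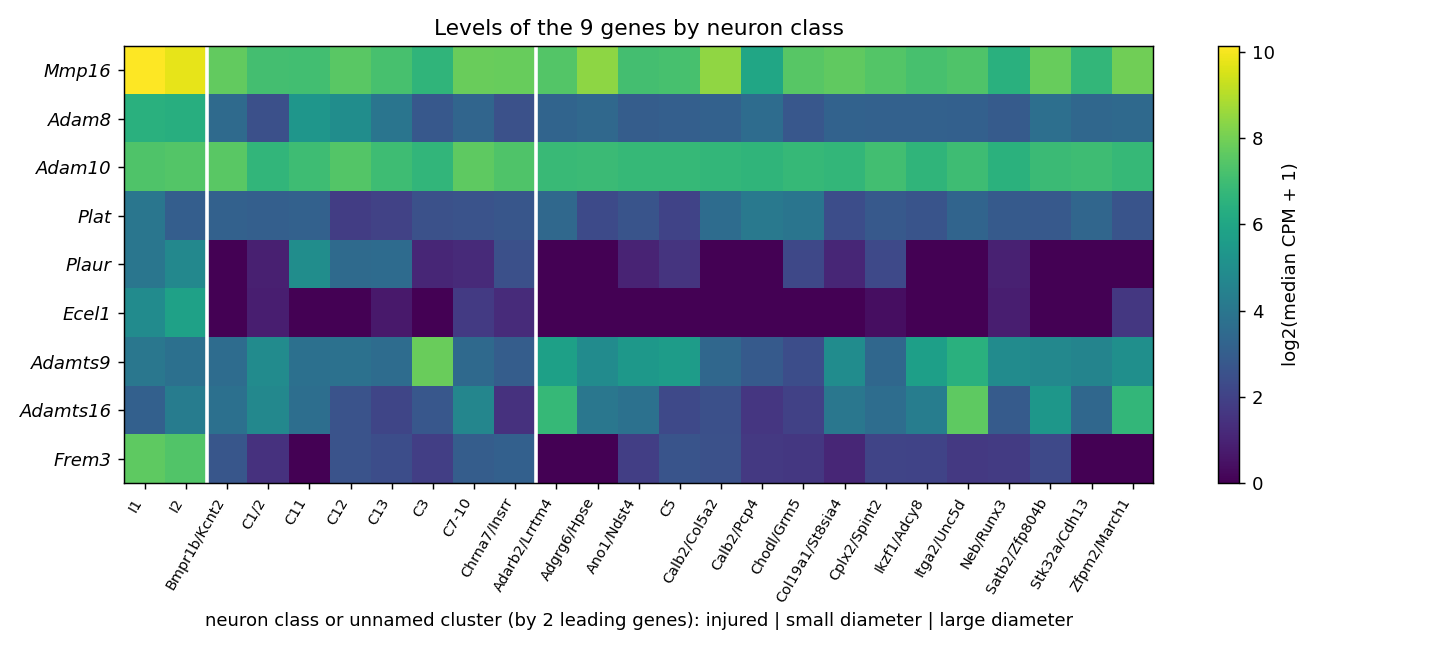
Median level of each member by neuron class over the 10x libraries, as log2(median CPM + 1), with I1 and I2 over the 6 injury libraries. Adamts9 peaks in C3 at 227 CPM and Adamts16 in the class led by Itga2 and Unc5d at 197 CPM, and the medians of Frem3 in uninjured classes are at most 7.58 CPM.

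The genes whose levels followed a member most closely over the 23 uninjured classes, by Pearson r of log2(CPM + 1) among 10195 genes, were Mical1 for Adam8 (r = 0.894), Zfp521 for Adamts9 (0.881), Tead1 for Adam10 (0.884), Ccdc60 for Plaur (0.820), Ttll11 for Adamts16 (0.806), Vstm5 for Frem3 (0.897), Dnajc1 for Mmp16 (0.740) and Atg2b for Plat (0.714). Classes share libraries and depth, and Zfp521 is itself a marker used to name C3. Ecel1 stayed under 10 CPM in every class and was not compared.

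Large and small diameter are labels set for whole clusters by marker genes, and no diameter was measured. The margin could be small: the cluster led by Cplx2 and Spint2 (3757 nuclei) counted as large with mean marker z of 0.15 against −0.05. Large and small diameter uninjured neurons were compared over the 7 10x libraries with library as a block, and 6 of 8 members tested were called, where 58.1% of 13481 genes were (29.5% higher and 28.6% lower in large neurons). Adamts16 was higher in large neurons by 1.22 (SE 0.11, adjusted p = 4.51e-08). Plaur (−1.03, SE 0.20, adjusted p = 0.000325) and Frem3 (−0.96, SE 0.18, adjusted p = 0.000144) were higher in small neurons, as were Adam8 by −0.46, Adamts9 by −0.39 and Adam10 by −0.32. All libraries but the control came from injured mice, and the uninjured nuclei of the 10x control held only 15 Frem3 UMIs. Without the library block Frem3 stood at −1.04 (SE 0.71) and was not called, nor were Adam8, Adamts9 and Adam10. With finer clusters (resolution 2) Adamts9 stood at −0.083 (SE 0.054, adjusted p = 0.199) and was not called. Mmp16 (−0.05, SE 0.04, adjusted p = 0.297) and Plat (0.18, SE 0.11, adjusted p = 0.174) did not pass. The share of members called lies near that of all genes.

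The Drop-seq control, which entered no test, held lower levels than the 10x control in uninjured nuclei for 7 of the 8 members it listed. Mmp16 stood at 100.01 against 187 CPM, Adam10 at 88.7 against 130 CPM, Adamts9 at 19.8 against 32.6 CPM and Adamts16 at 8.68 against 24.8 CPM. Adam8 (6.09 against 6.98 CPM), Plat (6.48 against 6.57 CPM) and Ecel1 (0.259 against 0.229 CPM) were close, and Plaur stood at 1.68 against 2.74 CPM.

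Uninjured nuclei of injured ganglia were compared with those of the 10x control. None of 9 members was called for IOT or for the milder injuries (edgeR), where the percent called was 0 for both and 161 and 1169 of 15478 genes had unadjusted p under 0.05, and DESeq2 called 0 and 24. The lone control library was assumed to vary like the others. Frem3 stood at 1.38 to 18.104 CPM in these uninjured nuclei against 0.858 CPM in the control from 15 UMIs, and the fitted log2 differences were 2.95 (SE 1.57, adjusted p = 0.9999) for IOT and 3.51 (SE 1.64, adjusted p = 0.665) for the milder injuries. Ecel1 stood at 0.364 to 4.38 CPM against 0.229 CPM. Atf3 stood at 2.11 to 9.11 times its control level in the same uninjured nuclei. At days 2, 7, 21 and 75 after IOT, Atf3 was at 6.74, 9.11, 4.68 and 2.11 times its control level. Frem3 was at 15.3, 6.86, 2.25 and 6.79 times its own. After cuts they were at 4.21 and 1.61 times, and with scratch lesions at 6.30 and 21.1 times. The part of free RNA or of injured nuclei assigned to uninjured classes was not tested.

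Related genes were followed in 12 lists of 154 genes that act in the same processes, chosen with earlier results of these data known and kept out of the clustering. Over all genes 14.5% were higher and 12.6% lower, with a median of −0.04. Since the lists were chosen with results of these data known, their counts are a description and no independent support. All directions below are for injured against uninjured nuclei after IOT, with an adjusted p under 0.05 in that edgeR test, and folds after the milder injuries are given where they lay the other way.

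Among 9 other matrix metalloproteinases tested, 1 rose and 1 fell, with a list median of 0.04, and Mmp28 rose 1.73-fold, at 9.91 to 39.4 CPM in injured and 5.51 to 26.8 CPM in uninjured nuclei, though not with I2 nuclei alone (−0.16, SE 0.49). After cuts no Mmp28 UMI was counted in injured nuclei, and with scratch lesions its level was 0.606 times the uninjured one. Among 9 other ADAM genes none rose and 2 fell, with a median of −0.22. Adam12 fell by 2.55 on the log2 scale and Adam11, a catalytically inactive ADAM of neurons, fell by 1.84, and both were lower in 4 of 4 IOT libraries. Of 21 other ADAMTS genes 7 rose and 4 fell, with a median of 0.16, and without the day 2 library 2 rose. Adamts1 rose 3.21-fold in 4 of 4 libraries, and Adamts15 and Adamts3 fell by 1.45 and 1.10, although Adamts3 was 1.91 and 1.19 times higher in injured nuclei after cuts and scratching. Adamts15 was not called with I2 nuclei alone (−0.90, SE 0.46), against large diameter neurons alone (−0.68, SE 0.28) or with the marker rule (−0.21, SE 0.15). Adamts3 was not called with I2 nuclei alone (−1.12, SE 0.47), nor Adamts1 with the marker rule (0.80, SE 0.25).

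Among the inhibitors of these enzymes 2 of 9 rose and 5 fell, with a median of −0.62. Only 1 rose with DESeq2, without TMM factors, without the filter or without the library of day 2, 7 or 21, cuts or scratch lesions, and 1 fell without the library block. Timp3, a matrix-bound inhibitor of metalloproteinases and ADAMs, rose 3.79-fold and stood at 106 to 201 CPM in injured against 21.3 to 49.7 CPM in uninjured nuclei. With I2 nuclei alone its difference was 0.46 (SE 0.30) and was not called. Spock3 fell by 1.14 and A2m, a broad protease trap, by 2.27. In the plasminogen list 2 of 6 rose and none fell, with a median of 0.18: S100a10, which binds plasminogen at the cell surface with Anxa2, rose 2.101-fold in 4 of 4 libraries and Anxa2 rose 1.20-fold, close to the threshold (0.26, adjusted p = 0.0495). Anxa2 was not called under 11 of the alternatives, with 0.16 (SE 0.10) without TMM factors, 0.20 to 0.26 without the library of day 2, 7 or 21, cuts or scratch lesions, and 0.03 (SE 0.10) against small diameter neurons alone, and without TMM factors 1 gene of the list rose and 1 fell. None of 4 genes of the neprilysin family tested beside Ecel1 changed, with a median of 0.03.

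Of the 6 genes tested in the Fras and Frem group, Frem1 rose 2.12-fold and Fras1 fell by 1.34, with a median of 0.00, and against small diameter neurons alone Fras1 stood at −0.12 (SE 0.25) and Frem1 at 0.71 (SE 0.32). Frem1 was also not called without day 2 (1.17, SE 0.41) or day 7 (1.01, SE 0.35), nor with the marker rule (0.32, SE 0.22). It had no injured UMI after cuts and stood at 2.90 times the uninjured level with scratch lesions. Of 22 basement membrane genes 6 rose and 1 fell, with a median of 0.04. Lama5, a laminin chain, rose 10.6-fold and stood at 17.05 to 60.2 CPM in injured and 1.46 to 4.46 CPM in uninjured nuclei (1.88, SE 0.78 and not called with I2 nuclei alone), and Lamb3 rose 2.65-fold in 4 of 4 libraries. Col18a1, the source of endostatin, rose 2.89-fold but was higher in 3 of 4 libraries, and it was not called without day 2 (0.94, SE 0.35). Among 14 lectican genes and partners 1 rose and 5 fell, with a median of −0.32. Bcan fell by 1.23, and Hapln1 and Hapln4, link proteins of perineuronal matrix, fell by 2.06 and 1.28, but against small diameter neurons alone they stood at 0.05 (SE 0.35) and 0.44 (SE 0.19).

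Of 14 genes listed as ADAM10 substrates, 4 rose and 1 fell, with a median of 0.13. Chl1, an adhesion molecule of axons that is also a known substrate of ADAM8, rose 4.79-fold and stood at 436 to 824 CPM in injured and 107 to 161 CPM in uninjured nuclei, Ncam1 rose 2.27-fold and Aplp2 fell by 0.75. Of 5 tetraspanins that escort ADAM10, Tspan17 rose 1.30-fold, higher in 3 of 4 libraries, and Tspan14 fell by 0.66. Tspan17 was not called without day 2 (0.32, SE 0.12), without TMM factors (0.27, SE 0.11) or with I2 nuclei alone (0.24, SE 0.16). Tspan14 was not called without day 7 (−0.43, SE 0.20) or day 21 (−0.55, SE 0.21), turned to 0.24 (SE 0.21) against large diameter neurons alone, and was 1.43 and 1.32 times higher in injured nuclei after cuts and scratching. Of 8 proprotein convertases, Pcsk1 rose 1.46-fold and Pcsk2 fell by 0.92, but with I2 nuclei alone the values were −1.48 (SE 0.43) and 0.06 (SE 0.18), and Pcsk1 was not called without day 2 (0.35, SE 0.18). When injured nuclei were those with UMIs of at least 3 of 10 injury markers, 1 of the ADAMTS genes, 2 of the basement membrane genes and 1 of the ADAM10 substrates rose and 0 of the inhibitors fell.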

How the data were processed

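The deposited values were counts of UMIs per gene and nucleus, which the authors made from 10x version 2 or Drop-seq libraries by mapping to a form of mm10 in which introns count, followed by filters on genes detected and mitochondrial share and removal of non-neuronal clusters. The submitters' processing notes name Cell Ranger 2.1.0, STAR 2.5.3a, bcl2fastq 2.17 and Seurat 2, while the annotation they counted on is not stated. Doublets were not called.

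For clustering, each nucleus was brought to a total of 10000 and logged, using the 14905 genes common to the tables. The members, markers, listed genes and genes the paper names (480) were withheld, and 2000 variable genes, z-scored within each library and clipped at 10, gave 30 components and 20 neighbors for Leiden clustering (leidenalg 0.10.2, resolution 1). Names were given where the mean marker z reached 0.5 and led the next class by 0.25. 16 of 26 stayed unnamed. An unnamed cluster was labeled large diameter where its mean z of large neuron markers exceeded that of small neuron markers by any margin, and small diameter otherwise. Of the named uninjured classes, C5 was labeled large and the others small. Members and lists were chosen with earlier results of these data known.

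Counts were summed by library and nuclear state and tested with edgeR 4.0.16 (quasi-likelihood, TMM factors, its low-count filter, library as a block, Benjamini-Hochberg threshold 0.05), leaving out the 2000 clustering genes. The 2 comparisons of uninjured nuclei with the control had no block. Residual degrees of freedom were 4 for injury effects and for the comparisons with the control, 2 for the trend, 3 for I1 against I2 and 6 for large against small neurons. Nuclei are not replicates, nothing says that pools share animals, and with 1 library a condition no test was made between single libraries. Shares were also taken after thinning each nucleus to 1143 UMIs, which left out 2206 shallower nuclei. Intervals of levels and shares are exact at 95% and cover counting error only. Intervals of fitted ratios run 2 SE to either side on the log2 scale.

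Named genes were the 9 members, up to 3 called genes of each list with at least 5 CPM and the largest change, and the genes most like each member over classes. Alternatives were DESeq2 1.42.0, no TMM factors, no low-count filter, each library left out, no library block, Leiden resolutions 0.6 and 2, injured nuclei taken as those with UMIs of at least 3 of 10 injury markers, and fewer withheld genes. Using I1 or I2 nuclei alone, 6 injury libraries for I1 against I2, and large or small neurons alone as the comparison group were chosen after seeing the data. The fits were tested on simulated data.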

Additional observations from a re-analysis of the deposited data

Results flagged for a closer look

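Adam8 had a log2 ratio of injured to uninjured nuclei of 2.75 at day 2 after IOT, apart from the 3.46 to 3.51 of the other 3 IOT libraries. Ecel1 stood at 4.38 CPM in the uninjured nuclei at day 7, from 35 UMIs, against 0.364 to 0.907 CPM in the other IOT libraries, and Atf3 was also highest there at 22.4 CPM. These 2 values stood out among 27 groups of 4 libraries examined for a single distant value, of which chance would mark about 1 in 20. Mmp16 had a larger injury effect after IOT than after the milder injuries, by 0.92 on the log2 scale (SE 0.19), with 4 of 4 IOT folds above both others. The IOT effect helped to choose Mmp16, which favors this direction, and the difference was 0.73 without facial cuts and 0.12 with I2 nuclei alone.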

How the results depend on the processing

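Of 774 values of single members under the alternatives, 697 kept their direction and their side of the threshold or moved by less than 1 SE, 22 lost a call, 8 gained one and 47 moved by more than 1 SE. The sign differed for 54 values, and for 0 of those called as reported. Without a library block, 5 of the 9 members were called for IOT injury, 0 for IOT against milder injuries and 2 for large against small neurons. The 1 call for IOT against milder injuries was also lost (0 members) without TMM factors, with the rule of 3 of 10 injury markers and with I2 nuclei alone. The trend had 1 call (Frem3) with DESeq2, without TMM factors, without the low-count filter and at resolution 0.6. I1 against I2 had 1 call (Mmp16) without the filter and at resolution 2. The class with the highest level was the one reported for 4 members with Drop-seq alone.

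Leaving out each library in turn gave 8 to 9 members for IOT injury, 0 to 1 for IOT against milder injuries (0 without facial cuts), 0 to 1 for I1 against I2 (1 without day 2), 6 to 7 for large against small neurons and 0 for the trend and for both comparisons with the control. The control itself could not be left out of these. With I2 nuclei alone the log2 differences of Mmp28, Pcsk2 and Pcsk1 turned to −0.16, 0.060 and −1.48. Against large neurons alone Tspan14 turned to 0.24, and against small neurons alone Hapln1 and Hapln4 turned to 0.050 and 0.44. The cause was not tested.

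Over all genes, IOT injury calls fell from 3820 to 2483 without day 2, 957 without the block, 1409 with the marker rule and 1464 with I2 alone. Calls for IOT against milder injuries fell from 171 to 69 without facial cuts, 49 without scratch lesions, 19 and 40 with I1 and I2 alone, and 0 without the block or with the marker rule. The trend had 2 calls as reported, 11 with DESeq2, 12 without TMM factors, 24 without the filter, 16 at resolution 0.6, and 0 at resolution 2, without the block, with the marker rule, with I1 alone or without any 1 library. I1 against I2 had 574, and 226 with DESeq2, 202, 206 and 313 without days 2, 7 and 21, and 63 without the block. Large against small neurons had 7833, and 2398 without the block, and the milder injuries against control had 0, and 24 with DESeq2.

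The library block paired the sums within each library, and its removal is given above. Between conditions, which have 1 library each, replicate numbers pair nothing. No paired analysis was possible because of this beyond the library block. Frem1 had no injured UMI among I2 nuclei and no value there, and resolution 0.6 did not split I1 from I2. Depth limits Plat, Plaur and Adamts16 most, with 45 to 72 injured UMIs over the 4 IOT libraries.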
